A study of Homo sapiens with 12 samples.

Results

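CXCL8, which encodes interleukin-8 (IL-8), belongs to a group of neutrophil-attracting chemokines that also holds CXCL1, CXCL2, CXCL3, CXCL5, CXCL6 and PPBP. Together with their receptors CXCR1 and CXCR2, these genes were chosen by symbol from a count table of tumor-associated macrophages (TAMs), and all 9 were found among its 58735 genes. Of the 9, the 7 ligand genes passed the filter on low counts and were tested with the 16046 genes that passed it, and the 2 receptor genes did not pass. The TAMs were made from THP-1, a human monocytic leukemia cell line, with the phorbol ester PMA, and were cocultured across a porous membrane with AsPC-1 pancreatic cancer cells. In the control group (NC) the AsPC-1 cells carried an empty lentiviral vector, and in the OE-MMP28 group they overexpressed the matrix metalloproteinase MMP28. In the anti-IL-8 and anti-VEGFA groups, the coculture with OE-MMP28 cells received a neutralizing antibody against IL-8 or against vascular endothelial growth factor A. Each group held 3 libraries. No group is named for a control antibody, so the effect of adding an antibody as such cannot be told apart from neutralization. The labels name THP-1 as the source of every library but do not say whether the libraries of a group came from separate cultures, so p-values measure the spread between these libraries.

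Chemokines of this group carry the tripeptide glutamate-leucine-arginine (ELR) directly before the paired cysteines of the CXC family, and they signal through CXCR1 and CXCR2, which are prominent on neutrophils. Transcription of CXCL8 and several of its relatives is known to depend on NF-kB. Their transcripts are known to be short-lived because of AU-rich elements in the 3′ untranslated region. IL-8 binds both receptors. An antibody against IL-8 acts on the secreted protein, whereas the values here are levels of the transcript made by the TAMs.

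The 7 ligand genes lie within 359 kb of chromosome 4, in the order CXCL8, CXCL6, CXCL1, PPBP, CXCL5, CXCL3 and CXCL2. CXCL8 (ENSG00000169429) spans chr4:73740506-73743716 on the plus strand, and CXCL2 (ENSG00000081041) at the other end spans chr4:74097035-74099293 on the minus strand. The coordinates are those of the deposited table, and start and end equal those of GENCODE 29 on GRCh38 for all 9 genes. The coding stretch that gives these chemokines their name is printed here because it defines the set. The capitals mark the 18 bases that encode ELR and the following C-X-C, read from the GENCODE 29 transcript of each gene.
CXCL8: gctaaaGAACTTAGATGTCAGTGCataaag
CXCL1: gccactGAACTGCGCTGCCAGTGCttgcag
CXCL2: gccactGAACTGCGCTGCCAGTGCttgcag
CXCL3: gtcactGAACTGCGCTGCCAGTGCttgcag
CXCL5: ttgagaGAGCTGCGTTGCGTTTGTttacag
CXCL6: ctgacaGAGCTGCGTTGCACTTGTttacgc
PPBP: tatgctGAACTCCGCTGCATGTGTataaag
All 7 ligand genes held this ELR-CXC stretch, against 0 of the 10 other CXC chemokines examined. CXCL1 and CXCL2 were identical over the bases shown. Over the whole coding sequence, CXCL1, CXCL2 and CXCL3 shared 90.7% to 94.4% of aligned positions with each other. CXCL5 and CXCL6 shared 87.4%. CXCL8 shared at most 52.9% with any of the others. Reads from near-identical stretches can be lost or split in counting, so the values of CXCL1, CXCL2 and CXCL3, and of CXCL5 and CXCL6, are less certain relative to each other than that of CXCL8.

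The promoters were searched for NF-kB and AP-1 motifs because both factors are known to act on CXCL8. The NF-kB letters were GGAATTTCC, the AP-1 letters TGACTCA and the GC-box letters GGGGCGGGG, each on both strands of the 250 bases before the RefSeq start (GRCh38.p14). Of the 7 ligand promoters, 6 held the NF-kB letters, on the gene's own strand and 77 to 91 bases before the start, and PPBP did not. Across all 35116 RefSeq promoters of that length, 0.413% held them. By the deposited coordinates, the gene spans of CXCL2, CXCL3, CXCL5 and CXCL6 begin upstream of the RefSeq start and include the stretches printed below. The match in each promoter is in capitals, with 10 flanking bases on each side.
CXCL8, chr4:73740468-73740496, plus strand: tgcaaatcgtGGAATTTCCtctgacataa
CXCL1, chr4:73869305-73869333, plus strand: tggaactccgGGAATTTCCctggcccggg
CXCL2, chr4:74099254-74099282, minus strand: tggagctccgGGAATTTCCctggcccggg
CXCL3, chr4:74038749-74038777, minus strand: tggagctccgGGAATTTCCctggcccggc
CXCL5, chr4:73998749-73998777, minus strand: atgagttcagGGAATTTCCccagcatccc
CXCL6, chr4:73836579-73836607, plus strand: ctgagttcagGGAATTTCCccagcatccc
The AP-1 letters were found in the promoter of CXCL8 alone among the 7, starting 137 bases before the start and not overlapping the NF-kB letters, and in 4.2% of all promoters. The GC-box letters were found in CXCL1, CXCL3 and CXCL6 and in 15.1% of all promoters. Aligned over the same 250 bases, the promoters of CXCL5 and CXCL6 shared 85.3% of positions and those of CXCL1 and CXCL3 shared 81.4%. CXCL8 shared at most 47.0% with another ligand promoter. These matches are descriptions of letters, and binding was not measured.

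The 3′ untranslated regions were searched for the AU-rich pentamer ATTTA. It occurred 9 times in that of CXCL8, or 7.19 per kb, and 13.9 times per kb in that of CXCL2, which had the most. CXCL1 had 7.08 per kb, CXCL3 10.4, CXCL5 5.51, CXCL6 5.36 and PPBP 4.27. The median over 16874 protein-coding genes was 1.51 per kb, and 10.4% of them reached 5 per kb. CXCR2 had 1.46 per kb and CXCR1 had 0.

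Library totals ranged from 15852346 to 18701195 counts, at which 3 counts correspond to 0.160 to 0.194 CPM (counts scaled to a common library total with edgeR's TMM factors). Mitochondrial genes took 6.92% to 17.8% of the counts, with the highest share in anti-VEGFA replicate 2. The monocyte and macrophage genes CD14 and ITGAM had at least 11260 and 6266 counts in every library, whereas CD68, a defining macrophage gene, had 0 to 5. The 15 macrophage and monocyte markers summed to 3057 to 3304 CPM in control libraries, 3240 to 4624 in OE-MMP28, 4014 to 4752 with anti-IL-8 and 3852 to 4162 with anti-VEGFA. The part of this shift in the results was not tested. Of the epithelial genes that would mark AsPC-1 cells, EPCAM had 0 counts in all 12 libraries and KRT8, KRT18 and KRT19 had at most 7. Others on this list of 14 genes were detected, and the list summed to 7.65 to 15.6 CPM per library. Group means of CLDN7 lay between 6.54 CPM (OE-MMP28) and 9.41 CPM (anti-IL-8). Those of MUC1 lay between 1.80 CPM (OE-MMP28) and 3.61 CPM (control). Whether these transcripts came from AsPC-1 cells was not tested.

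CXCL8 was by far the most abundant of the ligand transcripts. It took 0.537% to 1.19% of all counts, ranked between the 5th and 15th gene in each library, and made up 91.8% to 95.7% of the summed CPM of the 7 ligands. Divided by gene length, its level lay between 2527 and 5231 CPM per kb. CXCL1 followed at 111 to 201 CPM per kb, and CXCL2 (57.5 to 112) and CXCL3 (57.7 to 88.6) overlapped each other. CXCL5 lay between 16.7 and 73.0 CPM per kb, CXCL6 between 6.08 and 22.7, and PPBP between 2.61 and 12.3. The ranges of neighbouring genes in this order overlapped from CXCL1 downwards, whereas CXCL8 stood above all others in every library.

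**Figure D1:**
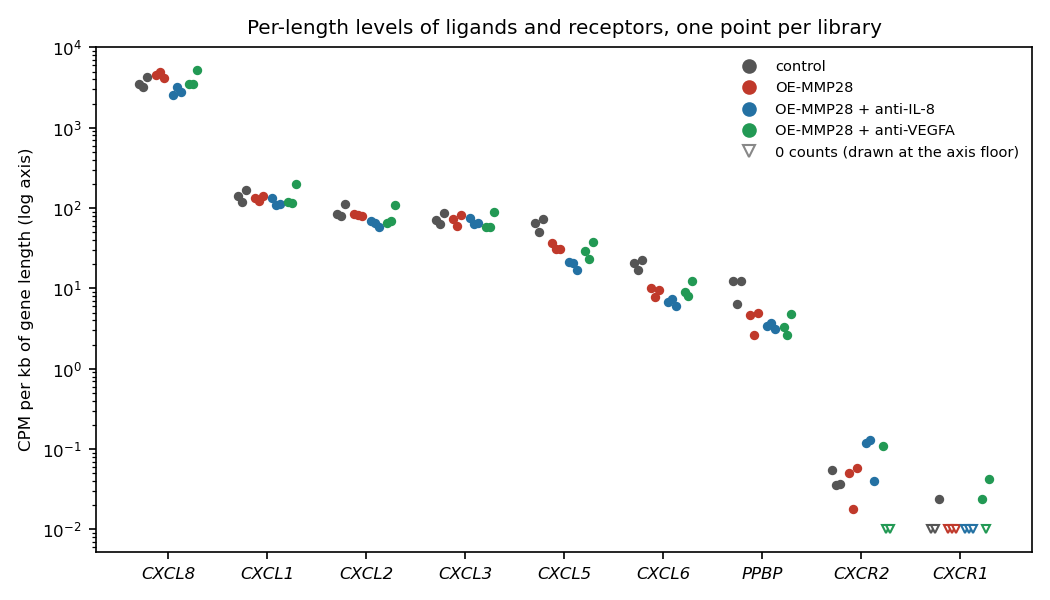
Level of each ligand and receptor gene in CPM per kb of gene length, on a log axis, with 1 point per library and 1 colour per group; open triangles at the axis floor are libraries with 0 counts. CXCL8 lies between 2527 and 5231 over the 12 libraries, and the receptors CXCR2 and CXCR1 lie below 0.13 throughout.

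The receptors were scarce. CXCR2, which binds all 7 ligands, had 3, 2 and 2 counts in the control libraries and 3, 1 and 3 in OE-MMP28. The counts were 6, 7 and 2 in the anti-IL-8 group and 6, 0 and 0 in the anti-VEGFA group. CXCR1, which binds chiefly IL-8 and CXCL6, had 4 counts over all 12 libraries, with 0 in every OE-MMP28 and anti-IL-8 library. Most of these counts lie at or under the 3 counts that a count of 0 allows, so no difference between groups was detectable at this depth. These limits cover counting error only.

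With MMP28 overexpression in the AsPC-1 cells, 3 ligand transcripts of the TAMs fell. These were CXCL5, CXCL6 and PPBP, all neutrophil attractants, the last known mainly as the platelet basic protein. The other 4 ligands, CXCL8 among them, did not pass the test. In all, 3 of 7 tested members were called lower at an adjusted p of 0.05, and 2.64% of all 16046 genes tested were called lower. The median log2 fold change of the 7 was -0.18, beside 0.02 for all genes tested. The adjusted p values here and below come from edgeR's quasi-likelihood test over all genes with Benjamini-Hochberg adjustment. In bulk libraries, fewer cells that make a transcript and less transcript per cell cannot be told apart.

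CXCL5 had 168, 128 and 185 CPM in the control libraries and 93.0, 78.0 and 78.4 in OE-MMP28. Every OE-MMP28 library lay under every control library. The log2 fold change was -0.95 (SE 0.18, adjusted p 0.00316). CXCL6 had 45.1, 36.9 and 49.5 CPM in control and 22.3, 17.2 and 20.6 in OE-MMP28. Its groups did not overlap either, and the log2 fold change was -1.13 (SE 0.17, adjusted p 3.4e-04). PPBP was far less abundant, with 8.72, 4.61 and 8.81 CPM in control and 3.29, 1.87 and 3.55 in OE-MMP28. Its log2 fold change was -1.34 (SE 0.29, adjusted p 0.0107), with groups that did not overlap. The call for PPBP was lost without control replicate 1 (adjusted p 0.074) or control replicate 3 (adjusted p 0.0696). How many of all genes tested had groups that did not overlap was not counted, here or below. Groups also separated without a call, as for CXCL16 in this comparison (adjusted p 0.496).

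CXCL8 itself had 8047, 7374 and 9668 CPM in control and 10184, 11223 and 9317 in OE-MMP28. The groups overlapped, since control replicate 3 exceeded OE-MMP28 replicate 3. The mean was 8363 ± 1179 CPM in control and 10241 ± 954 in OE-MMP28 (SD, n = 3), with a log2 fold change of 0.29 (SE 0.18, adjusted p 0.494). For CXCL1, CXCL2 and CXCL3, the GRO chemokines, the log2 fold changes were -0.10, -0.18 and -0.02, with adjusted p values of 0.702 to 0.970. Relative to CXCL8 within the same library, CXCL5 was 1.91 ± 0.18 per 100 CXCL8 CPM in control and 0.816 ± 0.111 in OE-MMP28 (SD, n = 3). The ratio was 0.780 ± 0.141 in the anti-IL-8 group and 0.822 ± 0.096 in the anti-VEGFA group. By this ratio to CXCL8, the 3 groups with OE-MMP28 cells lay within their spread of each other. Relative to CXCL1 they did not, since CXCL5 per 100 CXCL1 was 43.1 to 53.1 in OE-MMP28 and 29.2 to 37.1 with anti-IL-8. It was 37.1 to 47.5 with anti-VEGFA and 83.6 to 91.7 in control.

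**Figure D2:**
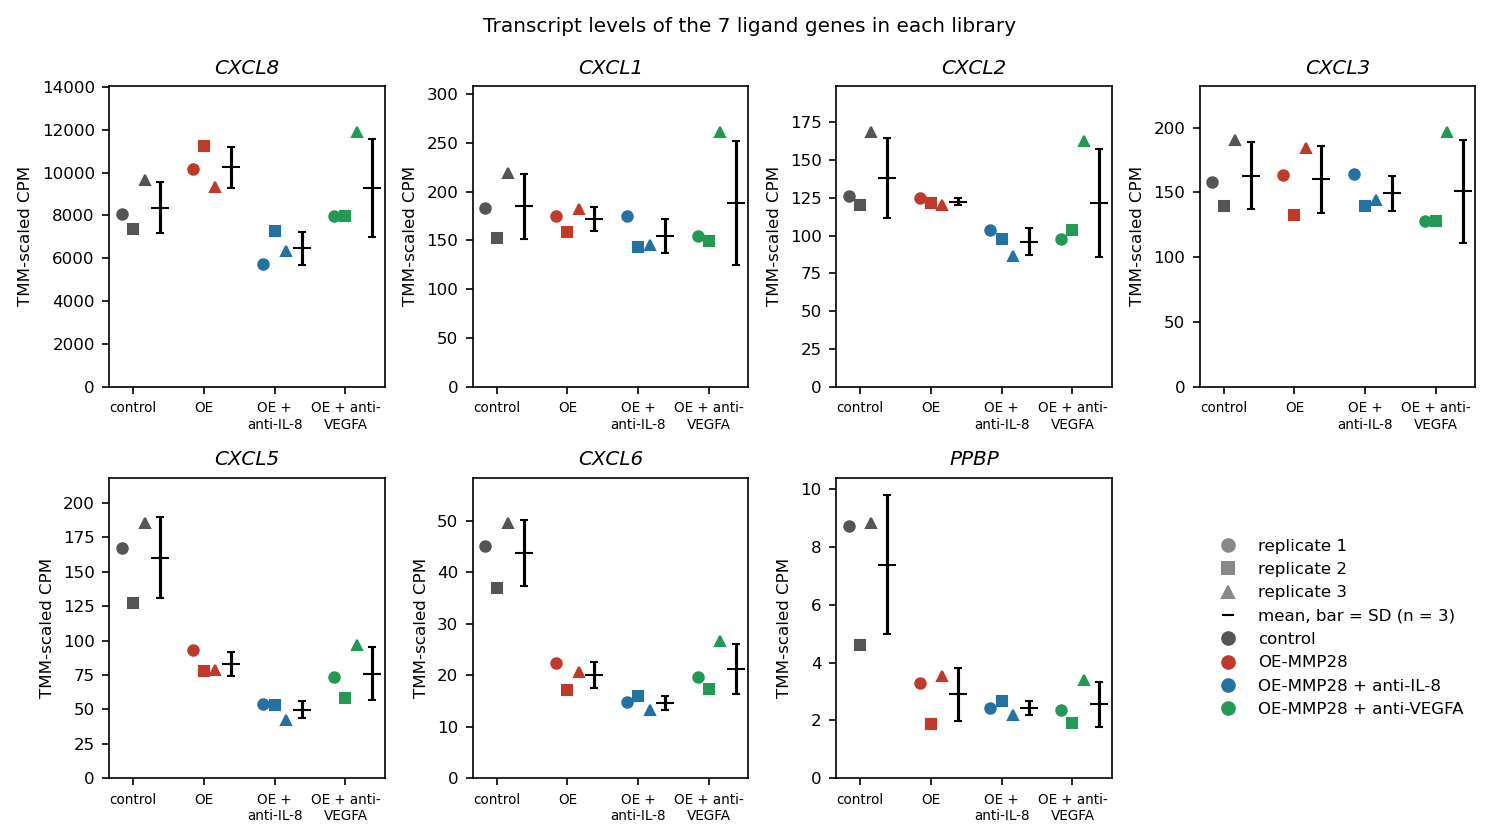
TMM-scaled CPM of the 7 ligand genes on linear axes from 0, with 1 point per library (the shape gives the replicate number), 1 colour per group, and the mean with SD beside them (n = 3). CXCL5 and CXCL6 in the control libraries lie above all other libraries, CXCL8 is lowest in the anti-IL-8 libraries, and anti-VEGFA replicate 3 is the highest library of its group in every panel.

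When IL-8 was neutralized, the transcripts of CXCL8, CXCL5 and CXCL6 in the TAMs were lower than with OE-MMP28 alone at an unadjusted p of 0.05, but no ligand passed the adjusted threshold. CXCL8 had 5746, 7292 and 6335 CPM with anti-IL-8, against 10184, 11223 and 9317 with OE-MMP28 alone. The highest anti-IL-8 library lay under the lowest OE-MMP28 library. The log2 fold change of CXCL8 was -0.67 (SE 0.18, unadjusted p 0.00154 and adjusted p 0.0627 by edgeR). CXCL5 had 53.9, 53.2 and 42.5 CPM with anti-IL-8, again under every OE-MMP28 library, and a log2 fold change of -0.74 (SE 0.18, adjusted p 0.0627). CXCL6 had 14.8, 15.99 and 13.3 CPM with anti-IL-8, with a log2 fold change of -0.45 (SE 0.17, adjusted p 0.103).

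By edgeR, 0 of the 7 ligands were called in this comparison, as were 0% of all genes tested. At the unadjusted threshold 3 ligands were lower and 0 higher, and 15.9% of all genes tested were lower. DESeq2 called 2, CXCL8 (adjusted p 0.00761) and CXCL5 (adjusted p 0.00776), whereas limma-voom and limma on FPKM called 0. In this comparison DESeq2 called 2376 of all genes, a count that also belongs beside its calls for the gene lists below. The calls depended on the method and on the libraries kept, OE-MMP28 replicate 3 among them. That library had more macrophage marker CPM (4624) than the other OE-MMP28 libraries (3590 and 3240). Whether this played a part was not tested. Without OE-MMP28 replicate 3, CXCL8 had a log2 fold change of -0.70 (adjusted p 0.0133) and 4203 of all genes tested were called. Leaving out anti-VEGFA replicate 2, whose values count in the spread that all groups share, CXCL8 had -0.64 (adjusted p 0.0462) and 1166 genes were called.

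CXCL2 had 104, 98.0 and 86.2 CPM with anti-IL-8 and 125, 122 and 120.4 with OE-MMP28 alone. These groups did not overlap, but the log2 fold change of -0.35 had an adjusted p of 0.187. CXCL1 (log2 fold change -0.15), CXCL3 (-0.10) and PPBP (-0.25) had overlapping groups and adjusted p values of 0.606 to 0.731. The median over the 7 ligands was -0.35, beside -0.02 for all genes tested.

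Anti-VEGFA gave no detectable shift of the ligands against OE-MMP28 alone. By edgeR 0 of 7 were called, beside 0.343% (55) of all genes tested, a count that went from 1 in the fit of these 2 groups to 1498 without OE-MMP28 replicate 3. In addition, 0 of 7 passed an unadjusted p of 0.05, which 18.8% of all genes did. DESeq2, limma-voom and limma on FPKM also called 0 ligands, while DESeq2 called 450 of all genes. CXCL8 had 7954, 7976 and 11896 CPM with anti-VEGFA, and its log2 fold change of -0.14 (SE 0.18) had an adjusted p of 0.688. Replicate 3 of anti-VEGFA was the highest library of its group for each of the 7 ligands. For CXCL1 it had 261 CPM beside 154 and 149, and for CXCL2 163 beside 97.6 and 104. The log2 fold changes of the 7 ligands ranged from -0.17 for PPBP to 0.13 for CXCL1.

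Set side by side, the antibody groups share the OE-MMP28 libraries as their reference, so the antibodies were also compared directly. CXCL5 was 0.61 higher on the log2 scale with anti-VEGFA than with anti-IL-8, CXCL6 was 0.53 higher and CXCL8 was 0.52 higher. Each passed an unadjusted p of 0.05 (0.00287, 0.00635 and 0.00889 by edgeR). The groups did not overlap, a separation that was not counted over all genes tested. None passed after adjustment (adjusted p 0.14, 0.182 and 0.197), so 0 of 7 were called, beside 0.199% of all genes tested. At the unadjusted threshold 3 of 7 were higher with anti-VEGFA, beside 9.39% of all genes tested. DESeq2, limma-voom and limma on FPKM called 0.

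Against the control group, CXCL5, CXCL6 and PPBP were lower in both antibody groups as well. These comparisons share the control libraries with that of OE-MMP28. With anti-IL-8, 4 of 7 ligands were called lower, beside 10.9% of all genes tested. CXCL5 had a log2 fold change of -1.68 (SE 0.18, adjusted p 5.82e-06), falling from 160 ± 29.5 to 49.9 ± 6.4 CPM (SD, n = 3). CXCL6 had -1.58 (SE 0.17, adjusted p 7.26e-06) and PPBP had -1.59 (SE 0.29, adjusted p 0.00182). CXCL2 was the fourth, at -0.53 (SE 0.17, adjusted p 0.0399). Its call did not hold in 9 of 22 alternatives, 7 of which left out a library (adjusted p 0.212 without control replicate 3). CXCL8 was lower than control in each anti-IL-8 library, by a narrow margin (7292 against 7374 CPM at the nearest), and its log2 fold change of -0.37 (SE 0.18) had an adjusted p of 0.14. In a fit of these 2 groups alone it was called (adjusted p 0.0282).

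With anti-VEGFA, 3 of 7 ligands were called lower than control, beside 5.37% of all genes tested. CXCL5 had a log2 fold change of -1.07 (SE 0.18, adjusted p 7.9e-04), CXCL6 -1.04 (SE 0.17, adjusted p 6.07e-04) and PPBP -1.51 (SE 0.29, adjusted p 0.00303). CXCL8 had 0.15 (SE 0.18, adjusted p 0.628), and without anti-VEGFA replicate 3 it had -0.063. CXCL1, CXCL2 and CXCL3 had 0.03, -0.19 and -0.11, with adjusted p values of 0.522 to 0.948.

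**Figure D3:**
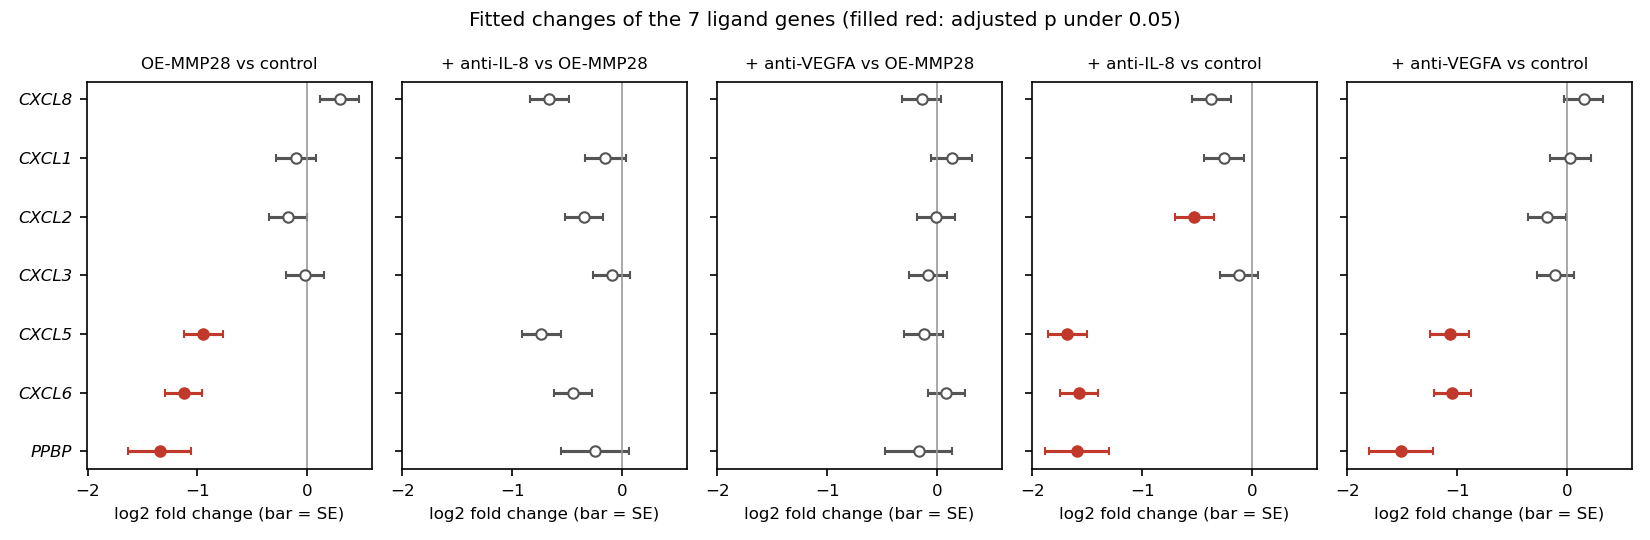
Log2 fold change of each ligand gene in 5 comparisons, with its SE as a horizontal bar; filled red points passed an adjusted p of 0.05 by edgeR. CXCL5, CXCL6 and PPBP are filled in the 3 comparisons against control, CXCL2 in that of anti-IL-8 against control, and no point is filled against OE-MMP28.

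The levels of the ligands were also compared with each other across the 12 libraries. Pearson's r of log2 CPM was 0.98 between CXCL5 and CXCL6, and PPBP had 0.89 with CXCL5 and 0.93 with CXCL6. CXCL1 had 0.87 with CXCL2 and 0.88 with CXCL3. CXCL2 had 0.73 with CXCL3, less than its 0.80 with CXCL5. CXCL8 had 0.73 with CXCL2, its closest ligand, 0.34 with CXCL6 and 0.16 with PPBP. After each group's mean was taken away, CXCL5 and CXCL6 had 0.94 and CXCL1 and CXCL3 0.95. CXCL8 then had 0.81 with CXCL2, 0.68 with CXCL6 and 0.43 with PPBP. All libraries enter every pair, and close paralogs can share reads, so these values describe the libraries without a test.

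**Figure D4:**
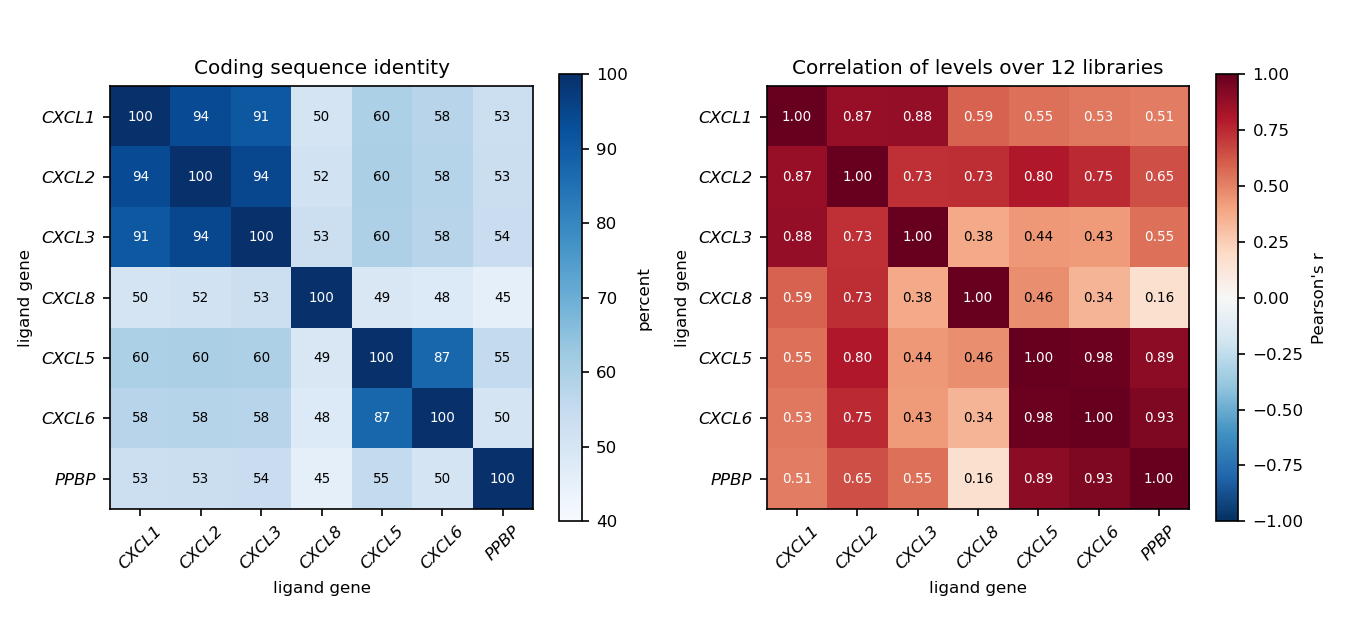
Left, percent identity of aligned coding sequences between the 7 ligand genes; right, Pearson's r of their log2 CPM over the 12 libraries. In sequence, CXCL1, CXCL2 and CXCL3 form a block and CXCL5 and CXCL6 a pair. In level, CXCL5 and CXCL6 are again a pair, CXCL2 has 0.73 with CXCL3 and 0.80 with CXCL5, and PPBP joins CXCL5 and CXCL6 in level (0.89 and 0.93) but not in sequence (55.4% and 50.5%).

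The genes whose levels followed CXCL8 most closely were no ligands. Among genes tested with a mean of at least 50 counts, ATP2B1, a plasma membrane calcium pump, had an r of 0.95 with CXCL8 over the 12 libraries. TTC14 had 0.95, TNFAIP6, a secreted hyaluronan-binding protein induced in inflammation, 0.94, and LZTFL1 and ABHD3 0.92 each. CXCL2 ranked 501st on the same list.

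Of the 10 other CXC chemokines, which lack ELR, 4 passed the filter on low counts, and 2 of them fell in OE-MMP28 against control. Of all genes tested, 2.64% were called lower there. CXCL16, the most abundant of the 4 in every group, had means of 72.9 to 111 CPM and a log2 fold change of 0.22 (adjusted p 0.496). CXCL10, an interferon-inducible ligand of CXCR3, fell from 51.8 ± 10.6 to 0.660 ± 0.621 CPM, a log2 fold change of -6.24 (SE 0.34, adjusted p 1.26e-09). CXCL11, which binds the same receptor, fell from 11.1 ± 3.7 to 0.662 ± 0.457 CPM (log2 fold change -4.02, adjusted p 4.02e-06; SD, n = 3). Against OE-MMP28 alone, 0 of the 4 were called with either antibody by edgeR. At an unadjusted p of 0.05, 2 passed when IL-8 was neutralized and 0 when VEGFA was. Of all genes tested, 13.4% were higher and 15.9% lower at that threshold with anti-IL-8, and 18.8% passed it with anti-VEGFA. DESeq2 called 1 of the 4 higher with anti-IL-8, and limma-voom called 0. Against control, 2 of the 4 were called higher and 2 lower with anti-IL-8, beside 9.77% and 10.9% of all genes tested. CXCL12 and CXCL16 were higher, at log2 fold changes of 0.79 (adjusted p 0.022) and 0.61 (adjusted p 0.00661). CXCL10 and CXCL11 were lower, at -5.94 (adjusted p 1.31e-09) and -5.68 (adjusted p 4.36e-07). CXCL11 had 0.210 ± 0.165 CPM with anti-IL-8, near the 0.160 to 0.194 CPM of 3 counts, so the size of its change is uncertain. CXCL10 and CXCL11 were also lower than control with anti-VEGFA, at -5.34 and -4.79 (adjusted p 3.65e-09 and 1.2e-06), beside 5.37% of all genes tested. The platelet chemokine genes PF4 and PF4V1, which lie inside the same cluster as PPBP, had at most 1 count. Of 9 other chemokine receptors and scavengers, 4 were tested and 1 was called in OE-MMP28 against control. This was ACKR3, a scavenger receptor, which fell from 36.1 ± 4.1 to 18.8 ± 3.4 CPM (log2 fold change -0.94, adjusted p 0.0174).

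Genes around the ligands on chromosome 4 were examined as well. Of 17 neighbours in the table, 7 were tested and 1 was called in OE-MMP28 against control, where 2.64% of all genes tested were called lower. AREG, which encodes the epidermal growth factor receptor ligand amphiregulin, fell from 121 ± 9.8 to 68.7 ± 1.9 CPM, a log2 fold change of -0.82 (SE 0.17, adjusted p 0.0084). With anti-IL-8 it had 46.9 ± 6.2 CPM, a log2 fold change of -0.55 against OE-MMP28 (adjusted p 0.0683) and of -1.37 against control (adjusted p 4.22e-05). The median of the 7 neighbours was -0.34 in OE-MMP28 against control and -0.31 in anti-IL-8 against OE-MMP28, beside 0.02 and -0.02 for all genes tested.

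Of the 31 genes for transcriptional control of CXCL8, 2 were called in OE-MMP28 against control, both lower, beside 2.64% of all genes tested. IRF1, an interferon-induced factor, had a log2 fold change of -0.80 (adjusted p 0.00446) and ATF3, a stress-induced factor, had -0.51 (adjusted p 0.015). The NF-kB subunit genes RELA and NFKB1 had 0.03 and 0.10. With anti-VEGFA against OE-MMP28, 2 were called, both lower, and both encode AP-1 subunits. Of all genes tested, 0.343% were called there, 50 higher and 5 lower. FOS fell from 623 ± 42.3 to 302 ± 20.9 CPM (log2 fold change -1.05, adjusted p 0.0102), and FOSB had -1.30 (adjusted p 0.0384). Other AP-1 subunit genes had values above 0 that did not pass, with 0.61 for JUNB, 0.56 for JUND and 0.46 for FOSL1 (adjusted p 0.111, 0.133 and 0.136). At an unadjusted p of 0.05, 9 of the 31 were higher and 4 lower, beside 10.4% and 8.44% of all genes tested. The median was 0.19, and DESeq2 called 1 higher and 2 lower. With anti-IL-8 against OE-MMP28, 0 of the 31 were called by edgeR. At an unadjusted p of 0.05, 6 were higher and 7 lower, beside 13.4% and 15.9% of all genes tested. DESeq2 called 3 higher and 4 lower there, and limma-voom called 0. The medians of the 31 log2 fold changes were -0.039 in OE-MMP28 against control and 0.10 with anti-IL-8 against OE-MMP28, beside 0.02 and -0.02 for all genes tested. Against control, 5 were called higher and 9 lower in the anti-IL-8 group, where 9.77% of all genes tested were called higher and 10.9% lower.

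Among 23 inducing cytokines and their receptors, 2 were called in OE-MMP28 against control, both lower, beside 2.64% of all genes tested. MYD88, the adaptor of the interleukin-1 and Toll-like receptors, fell from 134 ± 14.2 to 63.1 ± 2.4 CPM (log2 fold change -1.08, adjusted p 1.17e-05), and the cytokine gene IL36B had -0.80 (adjusted p 0.00275). IL1B, a strong inducer of CXCL8, was itself abundant, with group means between 7363 and 8980 CPM, and changed by 0.09 on the log2 scale between control and OE-MMP28 (adjusted p 0.815). Of 19 genes for AU-rich decay and stability, 3 were called in OE-MMP28, all lower, beside the same 2.64% of all genes tested. These were N4BP1 (log2 fold change -0.85), TRAF3IP2 (-0.48) and ZFP36L2, an AU-rich element-binding decay factor (-0.47). ZFP36, which encodes tristetraprolin of the same family, had 0.05 (adjusted p 0.934). The median of the 19 was -0.01 in this comparison. With anti-IL-8 against OE-MMP28 the median was -0.24. At an unadjusted p of 0.05, 1 was higher and 8 lower, beside 13.4% and 15.9% of all genes tested. There edgeR and limma-voom called 0 of the 19 after adjustment, whereas DESeq2 called 1 higher and 7 lower. For the inducing cytokines the medians were -0.13 and -0.06 in these comparisons. With anti-IL-8 against OE-MMP28, 3 of them were higher and 5 lower at an unadjusted p of 0.05, beside the same 13.4% and 15.9%. After adjustment 0 were called by edgeR or limma-voom, and 3 higher and 4 lower by DESeq2.

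Downstream of the receptors, 29 of 30 genes for CXCR1 and CXCR2 signalling were tested and 0 were called by edgeR in OE-MMP28 against control or with either antibody against OE-MMP28. At an unadjusted p of 0.05 in OE-MMP28 against control, 1 was higher and 2 were lower, beside 5.93% and 8.61% of all genes tested. With anti-IL-8 against OE-MMP28, 11 were higher and 5 lower, beside 13.4% and 15.9% of all genes tested. After adjustment DESeq2 called 7 higher and 4 lower, and limma-voom called 0. With anti-VEGFA against OE-MMP28, 6 were higher and 1 lower, beside 10.4% and 8.44% of all genes tested, and after adjustment DESeq2 called 2 higher and limma-voom 0. The medians were 0.05, 0.22 and 0.11 in the 3 comparisons, beside 0.02, -0.02 and -0.0015 for all genes tested. Against control, 6 were called higher and 3 lower with anti-IL-8, beside 9.77% and 10.9% of all genes tested, and 4 higher and 1 lower with anti-VEGFA, beside 5.6% higher and 5.37% lower of all genes tested in the latter. The most abundant of them, RGS16, a regulator of G-protein signalling, and RAC2 had log2 fold changes of 0.31 and 0.26 with anti-IL-8 (adjusted p 0.13 and 0.237).

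Among 21 proteases that can process chemokines, 17 were tested and 1 was called in OE-MMP28 against control, CTSK, which encodes cathepsin K (log2 fold change 0.56, adjusted p 0.0407). Neutrophil markers were examined because the ligands attract neutrophils. Of 20 listed, 11 were tested and 1 was called in OE-MMP28 against control, CSF3R, the receptor of granulocyte colony-stimulating factor, with a log2 fold change of -0.53 (adjusted p 0.0406). At an unadjusted p of 0.05, 2 of the 11 were higher there and 1 lower, beside 5.93% and 8.61% of all genes tested. AZU1 was among the 2 (log2 fold change 0.51, adjusted p 0.327), and ELANE and PRTN3 had 0.52 and 0.43 (adjusted p 0.417 and 0.371). These 3 azurophil granule genes were called higher against control in both antibody groups, where 3 of 11 markers were called higher and 0 lower by edgeR. Of all genes tested, 9.77% were called higher and 10.9% lower against control with anti-IL-8. With anti-VEGFA the shares were 5.6% and 5.37%. With anti-IL-8, AZU1 had 1.02 (adjusted p 0.00805), ELANE 1.08 (adjusted p 0.012) and PRTN3 0.83 (adjusted p 0.0126). With anti-VEGFA they had 0.93, 0.89 and 0.77 (adjusted p 0.0186, 0.0415 and 0.0257). The list summed to 118 to 190 CPM in the 12 libraries, MPO had at most 20 counts and FCGR3B at most 5. Of the 15 macrophage and monocyte markers, 13 were tested and 1 was called, CD14, which rose from 751 ± 89.5 to 1308 ± 425 CPM (log2 fold change 0.80, adjusted p 0.0272). Of the 14 epithelial markers, 4 were tested and 1 was called, MUC1, which fell from 3.61 ± 0.24 to 1.80 ± 0.23 CPM (log2 fold change -1.01, adjusted p 0.0341). Beside these list calls, 84 of all 16046 genes tested were called higher and 423 (2.64%) lower in OE-MMP28 against control.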

How the data were processed

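RNA of 12 THP-1 libraries, 3 in each of 4 groups, was analysed from the deposited table, and samples were grouped by their titles. Per the labels, reads were aligned with HISAT2 2.0.5 and counted with featureCounts 1.5.0-p3 (submitters' processing notes). The deposited read counts are whole numbers per gene for 58735 genes, all of whose IDs are in GENCODE 29. The authors also deposited FPKM values and gene lengths, and 30 columns of their own comparisons (fold changes and p-values), which were not used. The genome build and the strand setting are not given in the sources used here. The methods text speaks of sequenced tumor cells, whereas the labels name THP-1, and the labels were followed.

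Counts were analysed in R 4.3.3 with edgeR 4.0.16: filterByExpr over the 4 groups left 16046 genes, libraries were scaled by TMM, and quasi-likelihood tests came from 1 fit of all 12 libraries (common dispersion 0.0231), adjusted by Benjamini-Hochberg over all genes tested within a comparison. The threshold was an adjusted p of 0.05. The study used limma at an unadjusted p. Log2 fold changes use the fit's prior count of 0.125. Libraries held 15852346 to 18701195 counts, so CXCL8 had at least 89402 counts per library and PPBP at least 30. Gene lists were written by hand. The members and lists were chosen with earlier results of these data known. The genes named were the 9 members, the genes called in a list in the comparison of OE-MMP28 with control or of an antibody with OE-MMP28 (at most 4 per list, averaging 50 counts or more in whichever group was higher), the 2 most abundant genes of a list with none called, defining markers, and the 5 genes with the highest r to CXCL8 on log2(CPM + 0.5). RELA, NFKB1, IL1B, ZFP36, CXCL12, CXCL16, JUNB, JUND, FOSL1, AZU1, ELANE, PRTN3, CTSG, PF4 and PF4V1 were named after their values were seen. Sequences were read and aligned in Python 3.11.15 with Biopython 1.88.

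The alternatives were DESeq2 1.42.0, limma 3.58.1 (voom, and FPKM with a pseudocount of 1 or 0.1), scaling by library totals, testing without a filter, a floor of 10 counts per library, a fit of protein-coding genes, of 2 groups, or with the replicate number as a block, the unadjusted threshold, and each library left out. Methods were tested on simulated data. No pair of replicates was identical, and no library was removed.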

Additional observations from a re-analysis of the deposited data

How the results depend on the processing

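The 10 calls of ligands kept their direction under the 22 alternatives. The calls of CXCL5 and CXCL6 against control held in all of them, that of PPBP in OE-MMP28 against control was lost without control replicate 1 or 3, and that of CXCL2 in anti-IL-8 against control was lost in 9. With anti-IL-8 against OE-MMP28, where 0 ligands were called, 3 passed an unadjusted p, 2 were called by DESeq2, 2 with no filter, 2 with the replicate block, and 0 to 2 when a library was left out. CXCL8 there had log2 fold changes of -0.66 (DESeq2, adjusted p 0.00761), -0.67 (no filter, 0.00369) and -0.67 (replicate block, 0.0481), and -0.76 to -0.56 with a library left out (adjusted p 0.0133 to 0.285). With anti-VEGFA against anti-IL-8, 3 passed an unadjusted p and 1 was called with no filter. The labels do not say whether the replicate numbers pair the libraries. Of 18 same-numbered pairs, 7 had r over 0.1, with a range from -0.21 to 0.41. The r of pairs with different numbers was not computed, so these values cannot decide whether the libraries are paired. The block changed no other count of ligands called by over 1.5 times. With all genes, the count called in anti-IL-8 against OE-MMP28 went from 0 by edgeR to 2376 by DESeq2, 1438 with no filter, 795 with the block and up to 4203 with a library left out. In anti-VEGFA against OE-MMP28 it went from 55 to 1 in the fit of the 2 groups, 450 by DESeq2 and 8 to 1498 with a library left out. CXCL8 in anti-IL-8 against control gained a call in the fit of the 2 groups (-0.37, adjusted p 0.0282). Over all ligands, comparisons and alternatives, 863 of 924 values kept their direction and side of the threshold, 38 changed sign, and none of those 38 belonged to a called ligand. The cause of these shifts was not tested.

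The log2 fold changes that changed sign were at most 0.285 in size as reported, and none of them was called. CXCL2 in anti-VEGFA against OE-MMP28 had 0.0018 with at least 10 counts in every library. CXCL1 in anti-VEGFA against control had -0.0075 by limma-voom, -0.0059 with library totals, and -0.0074 and -0.0076 with FPKM plus 1 and plus 0.1. CXCL3 in anti-VEGFA against anti-IL-8 had -0.011 by limma-voom, -0.024 with either FPKM pseudocount and -0.013 with the replicate block. With a library left out, the ranges in OE-MMP28 against control were -0.22 to 0.035 for CXCL1 and -0.13 to 0.10 for CXCL3, and that of CXCL3 in anti-IL-8 was -0.22 to 0.045 against OE-MMP28 and -0.22 to 0.0041 against control. In anti-VEGFA against OE-MMP28 they were -0.18 to 0.28 for CXCL1, -0.28 to 0.12 for CXCL2, -0.32 to 0.044 for CXCL3, -0.34 to 0.041 for CXCL5, -0.12 to 0.21 for CXCL6 and -0.44 to 0.0079 for PPBP. In anti-VEGFA against control they were -0.28 to 0.18 for CXCL1, -0.34 to 0.017 for CXCL3 and -0.063 to 0.26 for CXCL8. In anti-VEGFA against anti-IL-8 they were -0.039 to 0.41 for CXCL1, -0.23 to 0.12 for CXCL3 and -0.20 to 0.23 for PPBP.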
